A study of Mus musculus with 8 samples.

Results

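Wild type MLL-AF9 cells are the control line of a study of Cdc73 in acute myeloid leukaemia, and they are described here by their RNA levels after 24 and 48 h of 4-hydroxytamoxifen (4OHT). The deposited table lists 23361 rows. After 27 rows whose symbols had been turned into date numbers were left out, 23334 genes remained, and the 10470 genes with at least 1 FPKM at either time in the wild type cells were kept for the comparison of times. FPKM is a fragment count scaled to transcript length and to all fragments of the library, so levels can be compared between genes. A total of 10218 genes reached 1 FPKM at both times, and 7415 were at 0 at both.

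The study holds 8 libraries of poly(A) RNA. They come from established leukaemia lines derived from bone marrow of 129S6 mice, and all carry MLL-AF9 and CreERT2. The wild type groups had both normal copies of Cdc73 (Cdc73 +/+) and the other groups were Cdc73 fl/fl, each treated with 7.5 nM 4OHT for 24 or 48 h in IMDM with 15% serum and 10 ng/mL interleukin 3. The 4 wild type libraries were 2 biological duplicates at each time, which the authors combined into 1 value per gene and time. The labels do not say whether the wild type line is 1 clone. No library without 4OHT was analysed here, so the time on 4OHT, the time in culture and the harvest cannot be told apart. With 1 value per gene and time there is no replicate check, standard error or test, and every difference below is a size.

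MLL-AF9 joins the amino-terminal part of the histone methyltransferase MLL to AF9, a protein of the transcription elongation machinery. The fusion is known for keeping the Hoxa cluster and Meis1 active in myeloid progenitors, which go on dividing and do not complete maturation into granulocytes and macrophages. CreERT2 is a recombinase fused to a mutated oestrogen receptor domain and is held outside the nucleus until it binds 4OHT. Cells of the wild type line carry the recombinase and receive the drug but have no floxed Cdc73 for it to cut.

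Promoter stretches of 3 interferon response genes are shown first because this list and the macrophage list had the median log2 changes farthest from 0 between the times. They come from the RefSeq promoter table, build GRCm38.p6, and are written 5′ to 3′ on the strand of the gene. Capitals mark the motif GAAANNGAAA on either strand, a core of the interferon-stimulated response element, and overlapping matches run together. Shown are the members with the lowest log2 changes among those whose promoter holds this motif. Members without it, Irf7 among them, were passed over. Ifi27l2a, Rtp4, Usp18 and Ifi204, with lower log2 changes than Oas3 and Ifit1, had no matched RefSeq promoter and were not searched. Counted from the start site, the first match begins at -78 in Isg15 (chr4:156200851-156200920, minus strand), at -75 in Oas3 (chr5:120777695-120777764, minus strand) and at -104 in Ifit1 (chr19:34640764-34640833, plus strand).
Isg15: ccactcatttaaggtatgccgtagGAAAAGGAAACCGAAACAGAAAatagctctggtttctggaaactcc
Oas3: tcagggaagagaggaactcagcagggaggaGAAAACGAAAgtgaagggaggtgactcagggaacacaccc
Ifit1: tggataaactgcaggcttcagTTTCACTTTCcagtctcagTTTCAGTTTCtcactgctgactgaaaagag

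The Isg15 stretch holds 3 overlapping matches, that of Oas3 holds 1 and that of Ifit1 holds 2. Of the 35 interferon response genes kept, 26 had a RefSeq promoter of 300 bases, and 16 of those (61.5%) held the motif, against 1079 of 27025 genes with a promoter in the table (3.99%). The windows of Irf7, Oasl2, Lgals3bp and Irf9 did not contain these letters. A match is a description of the sequence, and binding was not measured. The list was written to hold interferon response genes, so its share of motifs says nothing about the change between the times.

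The wild type profile was that of dividing cells rich in ribosomal and granule protein RNA. At 24 h 10369 genes reached 1 FPKM, 6406 reached 10, 1077 reached 100 and 115 reached 1000, and at 48 h the counts were 10319, 6386, 1065 and 114. The 100 highest genes held 34.5% of the summed FPKM at each time, and cytosolic ribosomal protein genes held 23.1% at 24 h and 23.0% at 48 h. The summed FPKM was 664843 at 24 h and 652534 at 48 h. Counts per library are not given, so depth is unknown. An estimate of relative depth from genes under 0.05 FPKM put the worth of 1 fragment at 48 h at 0.990 times that at 24 h, but only 64 of 1499 such genes lay within 0.002 of that ratio, and the assumption behind it was not tested.

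Among the 20 highest genes, small RNAs left out, 12 encoded cytosolic ribosomal proteins, led by Rplp1 at 6469 FPKM at 24 h and 6167 at 48 h. The translation factor gene Eef1a1 followed at 5825 and 5708. S100a8, a calcium-binding protein of neutrophils and monocytes, was the third at 5445 and 4134, and Elane, the elastase of primary granules, stood at 3374 and 3587. The others were Ftl1, the light chain of the iron store ferritin, Ptma, Ppia, Tmsb4x and Gm9846. Rps12, Elane, Rpl39, Rps2, Rpl38 and Gm9846 have the same locus entry as a second gene in the table, and the division of reads within such an entry is uncertain. This also holds for Prtn3, Cd34, Ear2, Egfl7, Hoxa5, Hoxa11, Cdc73, B2m, Lss, Srebf1, Srebf2, Elovl1, Me1, Ctsb, Nfkbia, Dbp and Bhlhe40 below.

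Genes of primary granules, which promyelocytes make, were the highest marker group. All 15 listed genes reached 1 FPKM, 9 of them 100 FPKM, and their summed level was 10143 FPKM at 24 h and 10721 at 48 h. The serine protease genes of these granules were the leading members: Prtn3 stood at 2253 and 2332 and Ctsg at 1602 and 1656. Mpo, which makes hypochlorous acid, stood at 1145 and 1368. Gfi1 and Cebpe, transcription factors of the granulocyte line, were at 83.2 and 87.0 and at 69.4 and 70.3. Nkg7 went from 19.4 to 27.9, the largest difference of the list, and Fcnb was the lowest member at 2.02 and 1.57.

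Markers of later neutrophils and of monocytes were also present, with uneven levels. Of 19 neutrophil genes in the table, 18 reached 1 FPKM, and the list summed to 9333 FPKM at 24 h, most of it S100a8 and S100a9 (2574 at 24 h). Secondary granule genes were below the leading primary granule genes: Ngp stood at 507 at 24 h, Camp at 365 and Ltf at 11.9. Cxcr2, the chemokine receptor of mature neutrophils, was at 1.86 and 1.84 and Mmp25 at 0.184 and 0.111. Of 26 monocyte and macrophage genes, 20 reached 1 FPKM and the list summed to 3654 FPKM at 24 h, most of it Ly6c2 (2011) and Lyz2 (1003). Markers of tissue macrophages were uneven: Emr1, which encodes F4/80, stood at 19.8 and 12.3, Gpnmb at 19.5 and 10.3 and the mannose receptor gene Mrc1 at 5.56 and 3.50, whereas the complement gene C1qa was at 0.140 and 0.0445 and Marco at 0 at both times.

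Early progenitor markers were mixed. Of 19 genes, 7 reached 1 FPKM. Kit, the stem cell factor receptor, stood at 17.9 and 17.1, and Cd48 at 21.6 and 23.0. Cd34 was at 0.620 and 0.690 and Flt3 at 0.442 and 0.491, while Mecom, Slamf1 and Robo4 were at 0 at both times.

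Defining markers of other lineages were at or near 0, with a few exceptions. Of 14 erythroid genes in the table, 0 reached 1 FPKM and 9 were at 0 at both times, the 4 globin genes included. None of 9 NK cell and 10 stroma genes reached 1 FPKM, and Cd3e was at 0. T cell genes summed to 3.93 FPKM at 24 h and 3.82 at 48 h, and B cell genes to 6.59 and 6.68, most of it Igll1. The markers of these lists above 5 FPKM at either time were Hdc, the histidine decarboxylase of mast cells and basophils, at 36.1 and 44.2, Ear2, an eosinophil-associated ribonuclease, at 17.6 and 9.67, Egfl7 and Pecam1 of the endothelial list at 12.2 and 11.7 and at 6.91 and 6.41, and Cd74, the MHC class II invariant chain of the dendritic list, at 5.35 and 2.69. In the mast cell and basophil list 10 of 15 genes were at 0 at both times, including the protease gene Cma1 and the IgE receptor gene Fcer1a, while the basophil protease gene Mcpt8 stood at 3.16 and 3.52. The plot of summed marker levels shows the distance between the myeloid lists and the rest.

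**Figure D1:**
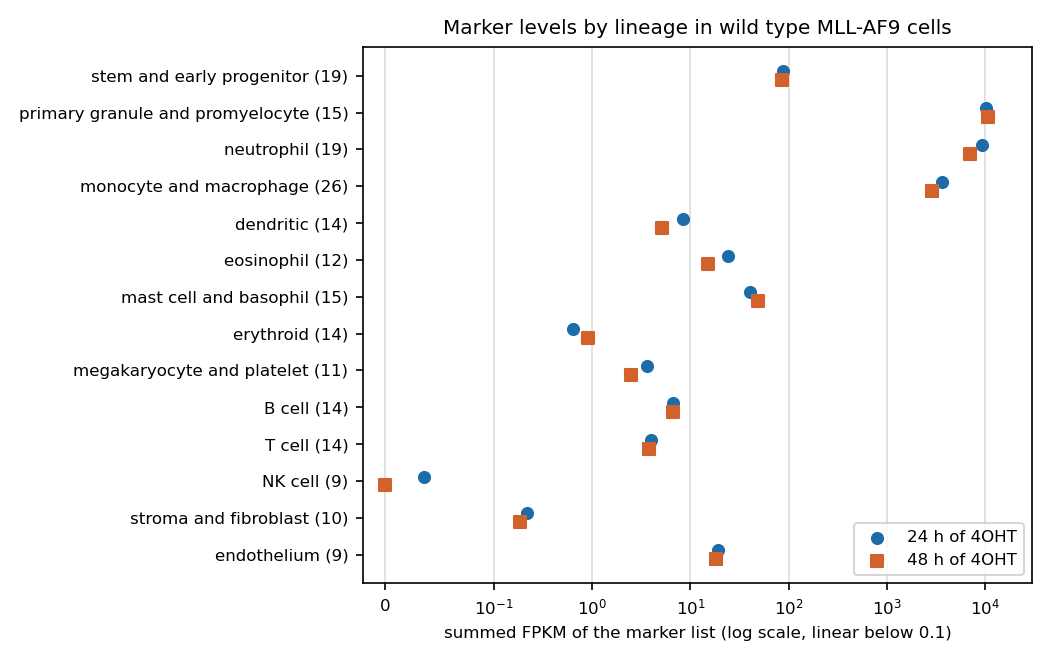
Summed FPKM of each marker list in wild type cells at 24 h (circles) and 48 h (squares) of 4OHT, on a log scale that is linear below 0.1, with the number of genes in the table in brackets. Primary granule genes sum to 10143 and 10721 FPKM, against 88.3 and 84.9 for early progenitor genes and 0.640 and 0.897 for erythroid genes.

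The MLL-AF9 programme was present at both times. Within the cluster, Hoxa10 was the highest member at 52.7 and 60.4 FPKM, followed by Hoxa9 (34.8 and 36.1), Hoxa11 (29.0 and 33.3), Hoxa7 (14.1 and 12.7) and Hoxa5 (7.59 and 7.65). Hoxa13 was at 0.0253 and 0.0265. Meis1 and Pbx3, partners of HOX proteins on DNA, stood at 12.97 and 13.2 and at 14.5 and 15.9. Myb and Myc, transcription factors of dividing progenitors, were at 116 and 128 and at 120.3 and 126, and the adaptor gene Lmo2 at 149 and 157. Mecom and Zfp521 were at 0 at both times.

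Partners of the fusion protein and the PAF1 complex were at moderate levels. Mll1 (now Kmt2a) stood at 4.02 and 4.10, Men1, which tethers MLL to chromatin, at 19.2 and 24.3, Psip1 at 19.1 and 21.9 and the H3K79 methyltransferase gene Dot1l at 14.4 and 14.7. Aff3 was at 0. In these wild type cells Cdc73 stood at 26.2 and 26.9, Paf1 at 33.3 and 34.3, Ctr9 at 29.5 and 31.6, Leo1 at 19.2 and 18.5, Rtf1 at 17.9 and 18.7 and Wdr61 at 64.4 and 67.9. The interleukin 3 receptor chains Il3ra and Csf2rb, through which the cytokine in the medium acts, were at 21.8 and 19.96 and at 45.1 and 41.1. Esr1, the receptor that tamoxifen binds in other tissues, was at 2.84 and 2.65, and Esr2 and Pgr were at 0. Whether RNA of CreERT2 or MLL-AF9 adds to the values of Esr1 or Mll1 was not tested.

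Levels at 24 and 48 h were close for most genes. The change is given as log2((48 h FPKM + 1)/(24 h FPKM + 1)), a scale that understates changes of low genes. Over the 10470 genes kept, its median was -0.01 and its median size 0.06, and 93.1% of genes lay within 1.2-fold. Across genes, which are not independent replicates, Pearson's r of the log2 values was 0.982, and 0.997 without small RNAs. A lower value at 48 h was found for 55.2% of genes and a higher one for 44.8%. This split depends on the scaling: with both times rescaled to the same sum the median was 0.014.

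A difference of 2-fold or more on this scale was found for 42 genes in the higher direction (0.401%) and 60 in the lower direction (0.573%). All 42 higher genes and 34 of the lower genes were small RNAs, such as microRNAs and snoRNAs, whose FPKM from poly(A) selection is unreliable. Of these 76, 51 were listed at 0 at one of the times. Among the 10323 other genes, 0 were 2-fold higher and 26 were 2-fold lower. The largest higher value among them was 0.77, that of Lars2, which stood at 240.3 and 409 FPKM.

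**Figure D2:**
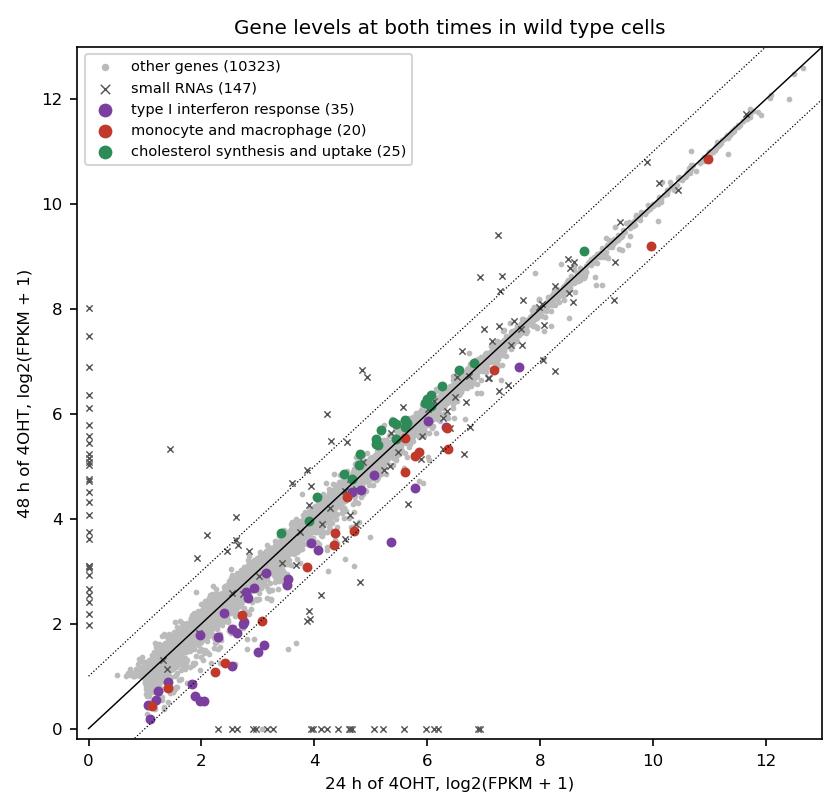
Level of each kept gene at 24 h (x axis) and 48 h (y axis), as log2(FPKM + 1), with the line of equality and dotted lines at 2-fold. Small RNAs (crosses) hold all 42 genes above the upper dotted line, and interferon response and macrophage genes hold 12 of the 26 other genes below the lower one.

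The spread narrowed with level, so each gene was also read against genes of like level. The 5th and 95th percentiles of the log2 change were -0.50 and 0.22 for genes with a mean under 2 FPKM, -0.26 and 0.20 from 5 to 10 FPKM and -0.18 and 0.13 from 50 to 200 FPKM. By construction 5.02% of all kept genes lay below the lower percentile of their level and 5.02% above the upper one. The counts of each list below are to be read beside these shares. Over all kept genes 55.2% were lower, 44.8% higher and 0.573% 2-fold or more lower. Counts of genes 2-fold or more lower or higher use the log2(FPKM + 1) scale, on which low genes can miss 2-fold despite a larger plain ratio. These percentiles describe this table and are not a measure of replicate error.

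Type I interferon response genes were lower at 48 h as a group. All 35 kept members had a lower value, against 55.2% of all kept genes. Of them 27 lay below the 5th percentile of their level (against 5.02%). On the log2(FPKM + 1) scale 8 were 2-fold or more lower (against 0.573%). The median log2 change was -0.65 against -0.01 over all kept genes. The list names 42 genes found in the table, and the other 7, such as Mx1 (0.338 and 0.0445) and Ifit3 (0.483 and 0.0624), stayed under 1 FPKM and were lower at 48 h too. In bulk RNA, fewer cells in a state and less RNA per cell cannot be told apart.

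Transcription factors of the pathway differed by unequal amounts. Irf7, the factor that amplifies the interferon response, stood at 7.002 FPKM at 24 h and 1.76 at 48 h, 3.98-fold lower. Irf9, a DNA-binding factor of the same response, went from 10.5 to 5.68. Stat2, which carries the receptor signal, was nearer to level at 5.95 and 5.11.

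Among effectors, Ifi27l2a had the largest change on the log2(FPKM + 1) scale at -1.79, from 40.0 to 10.9 FPKM (3.68-fold lower). Isg15, a ubiquitin-like modifier whose promoter stretch is given above, went from 7.67 to 2.02 (3.81-fold lower), and Usp18, which removes it from proteins, from 2.95 to 0.433. The antiviral oligoadenylate synthetase family gene Oasl2 stood at 2.68 and 0.540, Oas3 at 2.56 and 0.803 and Oas1a at 15.8 and 9.65. The 2 highest members at 24 h were Ifitm3, which restricts viral entry, at 198 and 118, and Bst2, which holds virions at the cell surface, at 79.5 and 52.9. Psmb8, an immunoproteasome subunit, had the smallest log2 change of the list, at 63.5 and 57.2. Outside the list, B2m, the light chain of MHC class I, stood at 500.0 and 389.

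Monocyte and macrophage genes were lower at 48 h too. All 20 kept members had a lower value, against 55.2% of all kept genes, and 17 lay below the 5th percentile of their level (against 5.02%). In 4 of them, Msr1, Siglec1, Ctss and Fcgr1, the value was 2-fold or more lower on the log2(FPKM + 1) scale (against 0.573%). Cd36 (1.19 and 0.343) and Mertk (1.65 and 0.718) did not reach 2-fold on that scale. The list median was -0.67. How this median compared with that of the interferon list turned on the pseudocount: with 0.1 they were -0.75 and -0.87, and with 5 they were -0.54 and -0.35. The summed level of the list went from 3654 to 2873 FPKM. Lyz2, the lysozyme of myeloid cells, stood at 1003 and 587, Ctss, a lysosomal cysteine protease, at 82.0 and 39.4, and Csf1r, the receptor for macrophage colony-stimulating factor, at 13.7 and 7.49. Ccr2, the chemokine receptor of inflammatory monocytes, was at 81.2 and 52.1 and Fn1, fibronectin, at 25.0 and 12.6. Members near level were Itgam (47.7 and 45.8), Ly6c2 (2011 and 1859) and Cd14 (22.9 and 20.3). Whether the macrophage and interferon genes differed in the same cells was not tested.

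Neutrophil genes leaned the same way with smaller differences. Of 18 kept members, 16 were lower (against 55.2% of all kept genes), 13 of them below the 5th percentile of their level (against 5.02%). On the log2(FPKM + 1) scale only Mmp8 was 2-fold or more lower, and the list median was -0.36. Fpr1, at 1.65 and 0.426, did not reach 2-fold on that scale. Mmp8, a collagenase, stood at 6.67 and 2.27. The antimicrobial peptide gene Camp was at 365 and 228, Ngp at 507 and 353 and S100a9 at 2574 and 1993. The 2 members with a higher value were Padi4, which citrullinates histones, at 32.7 and 36.0, and Csf3r, the G-CSF receptor, at 4.19 and 4.26. Primary granule genes did not share this lean: 12 of 15 had a higher value, 4 lay above the 95th percentile of their level (5.02% of all genes), and their median was 0.05.

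Among myeloid transcription factors, most were near level and a few linked to monocytes were lower. Of 29 kept, 9 were higher and 20 lower, 4 lay below the 5th percentile of their level, and the median was -0.03. Sfpi1 (PU.1), which directs myeloid fate, stood at 215 and 194, Cebpa at 68.8 and 74.3 and Irf8 at 36.6 and 30.8. Id2 (6.17 and 3.54), Irf5 (9.72 and 6.17) and Klf4 (4.56 and 3.09) had the largest differences.

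The 26 genes that were 2-fold or more lower, small RNAs left out, held 13 members of the interferon, monocyte and macrophage or neutrophil lists. Of the others, several are known from macrophages. The acute phase gene Saa3 stood at 11.8 and 2.09 (5.66-fold lower), the monocyte chemokine gene Ccl2 at 5.07 and 1.34 and the fungal lectin receptor gene Clec4n at 30.6 and 11.5. The lipoprotein lipase gene Lpl was at 59.9 and 24.7, the receptor kinase gene Axl at 17.9 and 7.04 and the tetraspanin gene Cd9 at 57.2 and 25.5. Ifi27l1, a neighbour of Ifi27l2a on chromosome 12, was at 22.3 and 8.44. Ddx19b (7.37, then listed at 0), Amd1 (10.6 and 1.88), Rps27 (25.1 and 7.54), Slfn5 (5.97 and 1.85) and Msr1 have a shared locus entry, and their values are uncertain. Cd9 was named after its values were seen.

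**Figure D3:**
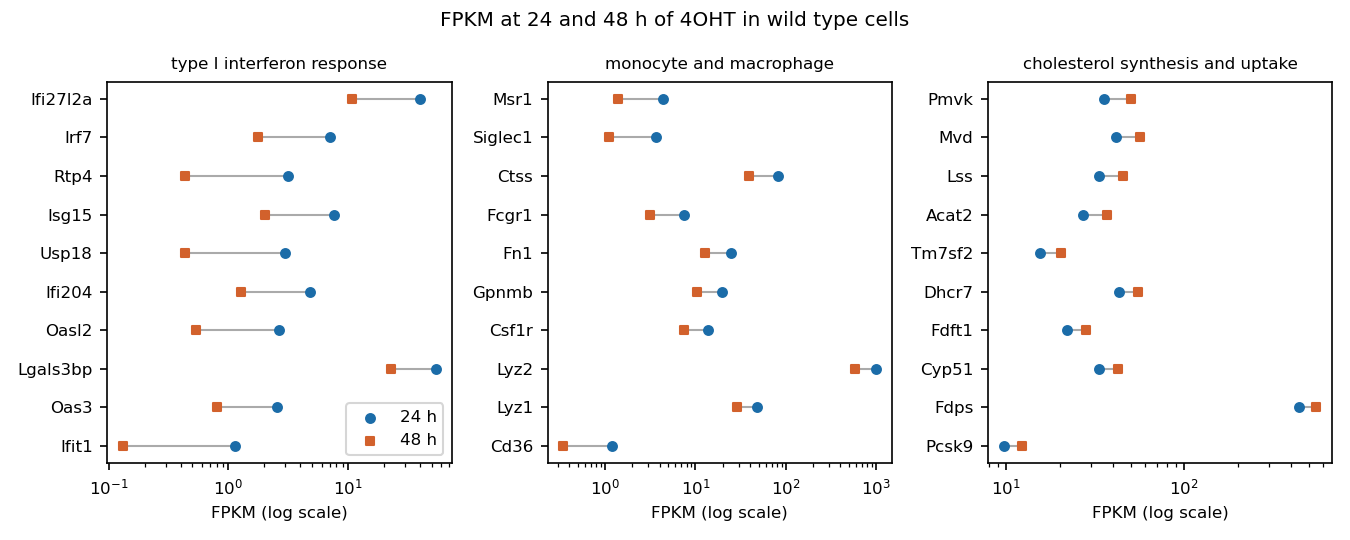
FPKM at 24 h (circles) and 48 h (squares) on a log scale for the 10 genes with the largest log2 change in the interferon, macrophage and cholesterol lists, each list ordered by that change. Every square lies left of its circle for interferon and macrophage genes and right of it for cholesterol genes.

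Genes of cholesterol synthesis and uptake were higher at 48 h as a group, by small amounts. All 25 members had a higher value, against 44.8% of all kept genes. Of them 21 lay above the 95th percentile of their level (against 5.02%) and 0 were 2-fold higher, with a median of 0.28. The summed level went from 1524 to 1858 FPKM. Along the pathway, Hmgcs1 stood at 47.8 and 57.7, Pmvk at 35.3 and 50.6 (1.43-fold higher), Mvd at 41.3 and 56.6, Fdps at 439 and 552, Sqle at 61.1 and 72.8 and Lss, which forms the sterol ring, at 33.3 and 45.1. Srebf2, the transcription factor that drives these genes, was near level at 65.9 and 70.3, and Hsd17b7 had the smallest difference at 14.1 and 14.6.

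Fatty acid synthesis genes leaned the same way. Of 13 members, 11 were higher (against 44.8% of all kept genes), 9 of them above the 95th percentile of their level (against 5.02%). The median was 0.20. Desaturase genes had the largest differences: Scd1 stood at 12.8 and 21.1 (1.64-fold higher), Fads2 at 36.6 and 54.5 (1.49-fold) and Scd2, which shares its locus entry, at 330 and 466. Fasn was at 86.7 and 99.9 and its regulator Srebf1 at 48.2 and 49.6. Elovl1 (91.5 and 86.3) and Me1 (4.44 and 4.02) were lower.

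Genes of the sterol export and lysosome list leaned lower, most of them by small amounts. All 17 kept members had a lower value (against 55.2% of all kept genes), with a median of -0.14. Of them, 4 lay below the 5th percentile of their level (against 5.02%), and most lay within the percentiles. Abcg1 was the only sterol export gene among these 4, and the others encode lysosomal enzymes. Abcg1, which exports cholesterol, stood at 9.18 and 6.35, Lipa, the lysosomal acid lipase, at 44.4 and 36.5 and the protease gene Ctsb at 122 and 98.7. Abca1 was under 1 FPKM at both times (0.566 and 0.269).

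Endoplasmic reticulum chaperones were slightly higher at 48 h. Of 16 unfolded protein response genes, 15 were higher (against 44.8% of all kept genes), with a median of 0.17. Of these, 10 lay above the 95th percentile of their level (against 5.02%). Hspa5 (BiP) stood at 640.4 and 761, Hsp90b1 at 579 and 658 and Creld2 at 50.4 and 59.9, while Dnajb9 was lower at 17.2 and 15.2. Of 12 heat shock genes, 10 were higher and 5 lay above the 95th percentile of their level, with a median of 0.09, and Hsph1 (40.6 and 58.5) and the abundant chaperone gene Hspa8 (1647 and 2071) led them. ATF4 and amino acid genes were level, with 13 of 24 higher and a median of 0.0036, although Chac1, which degrades glutathione, stood at 6.19 and 8.79.

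Most genes of the oxidative stress and metallothionein list, which includes ferritin genes, were lower. Of 15, 13 had a lower value (against 55.2% of all kept genes) and 5 lay below the 5th percentile of their level (against 5.02%). The median was -0.14. Hmox1, which breaks down haem, stood at 24.0 and 13.3, Nqo1 at 5.50 and 4.08, and the ferritin genes Fth1 and Ftl1 at 753 and 595 and at 3847 and 3318. Ftl1 lay within the percentiles of its level. The metallothionein genes were near level, Mt1 at 771 and 782 and Mt2 at 103 and 98.8. Mt1 and Txnip (35.9 and 37.8) were the 2 members with a higher value. Glycolysis genes were slightly higher, with 18 of 22 above 0 (against 44.8% of all kept genes) and a median of 0.06. Of the 22, 4 lay above the 95th percentile of their level and 1, Hk2 (33.0 and 28.8), below the 5th. Pfkl at 70.0 and 88.0 and the lactate exporter gene Slc16a3 at 163 and 193 led the list. Hypoxia response genes were split, 10 higher and 8 lower. Of these 18, 6 lay above the 95th percentile of their level and 4 below the 5th (against 5.02% each). Bnip3 was at 106 and 143 and P4ha1 at 17.4 and 24.7, whereas Ankrd37 was at 10.2 and 6.72.

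Proliferation genes were near level. Of 42 DNA replication genes, 19 were higher and 23 lower, 0 lay below the 5th percentile of their level and 1 above the 95th, and the median was -0.0033, a sign that turned to 0.02 when both times were rescaled to the same sum. Pcna, the sliding clamp, stood at 358 and 366 and Mcm3 at 161 and 160.5. Of 33 mitosis genes, 12 were higher and 21 lower, with a median of -0.03. Mki67 was at 31.5 and 31.5, and Ccnb1, the mitotic cyclin, at 133 and 118. Cdkn1a, the p53-induced inhibitor of cyclin-dependent kinases, stood at 44.2 and 36.5. The p53 target list as a whole had 8 higher and 15 lower of 23, with a median of -0.02.

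The MLL-AF9 programme did not lean as a group: 14 of 25 kept genes were higher and 11 lower, 4 lay above the 95th percentile of their level and 1 below the 5th, and the median was 0.02. Hoxa10 and Hoxa11 were 0.19 and 0.20 higher on the log2 scale, and Id2 was the 1 member below. Of 14 fusion cofactors, 9 were higher, with a median of 0.03 and Men1 at 0.33, and of 6 PAF1 subunits, 5 were higher, with a median of 0.05. Interleukin 3 pathway genes had 8 higher and 12 lower of 20, with a median of -0.07. Among them Cish, a feedback inhibitor induced by STAT5, stood at 30.5 and 24.0 and Csf2ra at 87.0 and 72.4, while Osm was higher at 3.88 and 4.76.

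Other groups had small or mixed differences, to be read beside 55.2% lower and 44.8% higher over all kept genes. Immediate early genes had 17 of 22 lower with a median of -0.14, and Atf3 stood at 1.77 and 0.708. Of the 22, 4 lay below the 5th percentile of their level (against 5.02%). Replication-dependent histone genes had 11 of 16 lower, with a median of -0.15 that became -0.004 with no filter on low values. Of these 16, 5 lay below the 5th percentile of their level and 4 above the 95th. NF-kappaB response genes had 5 higher and 9 lower with a median of -0.08, and Nfkbia was at 19.6 and 17.7. Ribosome biogenesis genes had 28 of 33 lower with a median of -0.08, 0 of them below the 5th percentile of their level. Cytosolic ribosomal protein genes had 73 of 82 lower and respiratory chain genes 67 of 80, with medians of -0.03 and -0.04, which became 0 under quantile normalization. Clock genes had 7 of 12 higher, with Dbp at 1.82 and 2.32 and Bhlhe40 at 27.5 and 20.3. Of 33 lists with at least 5 kept members, 23 had a median within 0.1 of 0 on the log2 scale and 3 had one beyond 0.3, all lower at 48 h: the interferon, macrophage and neutrophil lists.

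**Figure D4:**
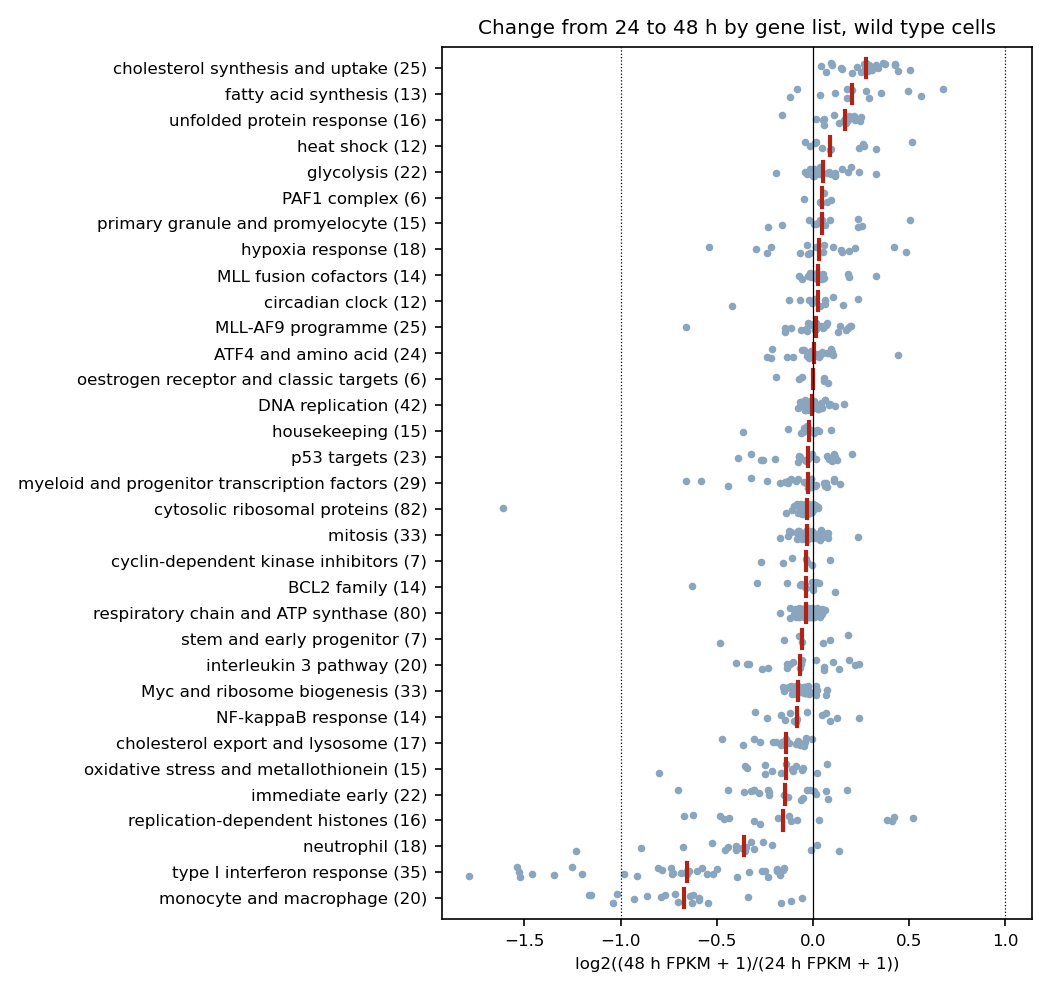
Log2 change from 24 to 48 h of each kept gene (points) and the median (bar) for the 33 lists with at least 5 kept members, number kept in brackets, with dotted lines at 2-fold. The macrophage, interferon and neutrophil medians lie at -0.67, -0.65 and -0.36, and the cholesterol median at 0.28.

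On the log2(FPKM + 1) scale the highest differences outside small RNAs were below 2-fold. The 15 highest among genes of at least 5 FPKM at either time are given in that order, which ranks low genes below their plain ratio. Under that level, the histone gene Hist1h4k stood at 0.424 and 1.04 FPKM. After Lars2, the mitochondrial leucyl-tRNA synthetase (1.70-fold higher), came Creb3l2, a membrane-bound transcription factor, at 2.76 and 5.08 (1.84-fold), then Scd1, Fads2 and Hsph1. Glod5, Hdac7, Nkg7, Pmvk, Scd2, P4ha1, Cyp11a1 (41.3 and 57.3), Mvd and Chac1 followed. The last of the 15 was AF357399, a snoRNA in GENCODE whose symbol does not show it. Hdac7, Scd2 and AF357399 have a shared locus entry.

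The same comparison of times spanned wider differences in the floxed line, in which 4OHT is used to excise Cdc73. There 536 of 10899 genes were 2-fold or more higher and 153 lower, and the median size of the log2 change was 0.33, against 0.06 in wild type cells. The medians of the macrophage and interferon lists were 0.63 and 0.50 there, against -0.67 and -0.65 in wild type cells. Both pairs cover the list members kept by their wild type level, some of which were under 1 FPKM in floxed cells at 24 h. The 10899 genes above were kept by their floxed level instead. With 1 value per group, the difference between the lines was not tested.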

How the data were processed

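Libraries from Qiagen RNeasy extracts were read by Illumina HiSeq, per the labels' protocols. The submitters' processing notes name mm10 as the build and Cuffdiff, Cufflinks 2.1 and Bowtie2 as tools, without their role or order. Annotation and strandedness are not given in the sources. Per the file headers, each deposited FPKM value stands for a gene in a group, with duplicates already combined by the authors. Whether 24 and 48 h were scaled together is not stated. FPKM is relative to all other RNA and does not show total RNA per cell. Of the kept genes, 9842 matched GENCODE M21, and 2071 share a locus entry with another gene. Computation used Python 3.11.15, pandas 2.3.3 and numpy 2.4.6, with a pseudocount of 1 FPKM, and was tested on simulated data. Fold values are ratios of deposited FPKM where both reach 1.

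Named were the 20 highest genes, the 15 highest and 15 lowest log2 changes among genes of at least 5 FPKM with small RNAs left out, members of largest change, highest level or defining role in each list, and any member of the MLL, PAF1 and interleukin 3 lists. Members and lists were chosen with earlier results of these data known, so the direction of the interferon and macrophage lists is not independent support. Alternatives were other pseudocounts, level filters and scalings, and leaving out small RNAs or genes of shared locus.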

Additional observations from a re-analysis of the deposited data

How the results depend on the processing

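No paired analysis was possible because the table holds 1 value per group, and leaving out a replicate could not be run for the same reason. The 42 genes 2-fold or more higher and 60 lower became 0 and 26 with small RNAs left out and 8 and 28 with genes of shared locus left out, where fewer genes are counted. A pseudocount of 0.1 gave 93 lower genes. Under the other alternatives both counts stayed within 1.5 times. The interferon median ranged from -0.87 with a pseudocount of 0.1 to -0.35 with a pseudocount of 5, the macrophage median from -0.75 to -0.54 and the cholesterol median from 0.26 to 0.31. Over all alternatives, 4 list medians changed sign: DNA replication, oestrogen receptor, clock and housekeeping genes, each near 0. Among 645 named genes, 112 changed sign under an alternative, and the largest log2 change among those was 0.06 in size. The median of all kept genes was -0.011 as deposited, 0.014 with both times rescaled to the same sum and 0.006 under quantile normalization. Its sign thus depended on the scaling. Depth per library is unknown, so no detection limit was set.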
